A study of Mus musculus with 12 samples.

Results

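Genes of the myeloid cell surface and of antigen presentation were compared between blood monocytes (MNCs) and the liver's own macrophages, the Kupffer cells (KCs). The set was chosen by symbol and holds 5 of the 248 inflammation-related genes tested: Itgb2 for adhesion, Tyrobp and Trem2 of the DAP12 pathway, Cd86 for co-stimulation, and H2-Eb1 of MHC class II. All 5 had a row in the table. mRNA was measured on the nanostring platform, which hybridises each target to probes that carry a fluorescent barcode and counts the barcodes singly without amplification. There were 6 samples of MNCs from blood and 6 of KCs from liver of Balb/C mice, and the labels name strain and tissue as the only characteristics. By the labels each sample was a pool of cells from 5 mice and 100 ng of total RNA went into the reaction. The paper's account of this assay also allows for pools of fewer than 5 animals. Both cell types were isolated with magnetic beads against F4/80, a macrophage surface protein that is not exclusive to either of them. The liver was digested with collagenases before sorting and the blood was not, so digestion and cell type cannot be told apart.

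Adhesion of leukocytes depends on integrins that share the beta chain CD18, the product of Itgb2, paired with different alpha chains. DAP12, the product of Tyrobp, is a small membrane adaptor that carries the signal of receptors without a signalling tail of their own, among them the lipid-binding receptor TREM2. Antigen is shown to CD4+ T cells as peptide on MHC class II molecules, and CD86 on the presenting cell gives the second signal by binding CD28 on the T cell. Kupffer cells are known for capturing particles and microbes from portal blood, and for presenting antigen in a setting that favours tolerance.

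The deposited values are normalized counts, in which each lane was multiplied by 1 factor (0.554 to 1.13 in MNCs, 1.30 to 2.17 in KCs). Dividing by it returned 158730 to 339100 counted molecules above the background per MNC sample and 80944 to 140029 per KC sample. The background of a lane was its highest negative control, and genes that did not exceed it carry that number, to which the factor was not applied. It was 5 to 27 in MNCs and 7 to 14 in KCs. Housekeeping genes took part in the authors' factor, and the 4 kept apart here themselves differed between the cell types. Their mean normalized counts in KCs and MNCs were 324 and 933 for Gusb, 2971 and 1704 for Gapdh, 289 and 151 for Pgk1, and 2655 and 2140 for Cltc. All folds below depend on this scaling. Few of the genes that define either cell type were on the panel. The 4 Kupffer cell genes measured (Cd163, C1qa, C1qb and C6) summed to 1238 to 3866 normalized counts in KCs and to 4375 to 9247 in MNCs. This order goes against the labels and came from C1qa and C1qb, while Cd163 and C6 were higher in KCs. Ccr2, the only monocyte gene of the list on the panel, overlapped between the cell types. Alox15, Retnla and Tgfb2, known from resident peritoneal macrophages, summed to 20099 to 31675 in MNCs and to 126 to 339 in KCs, and 8 hepatocyte genes to 4008 to 13939 in KCs and 42.9 to 216 in MNCs. In MNCs 7 of the 8 hepatocyte genes were at the background in every sample, so that this sum is mostly listed background. 10 T and NK cell genes summed to 10949 to 37302 in KCs and to 4415 to 8522 in MNCs. Each sample is a mixture, so that fewer cells of a type and less RNA per cell cannot be told apart, and the part of these other cells in the results below was not tested.

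Of the 5 genes, 4 were measured above the background in all 12 samples and all 4 were lower in KCs: Itgb2 by 3.31-fold, Cd86 by 2.17-fold, Tyrobp by 1.99-fold and H2-Eb1 by 1.41-fold. Trem2 was at the background in 10 of the 12 samples. Folds are ratios of geometric means of normalized count + 1, and p-values come from limma on log2(normalized count + 1), adjusted over the 248 genes by the Benjamini-Hochberg method. By this test 21.4% of all genes were called lower in KCs at an adjusted p under 0.05, and in 15.7% every MNC sample lay above every KC sample. In the other direction 35.1% were called higher (56.5% either way), and in 41.5% the groups did not overlap, whichever was higher. With samples rescaled to their median gene the balance turned round, with 108 genes called lower and 68 higher, and without MNC sample 2 the 53 genes called lower became 86. Over all genes the median log2 fold change was 0.05. The genes had been picked with earlier results of these data known, so that their count is a description.

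**Figure D1:**
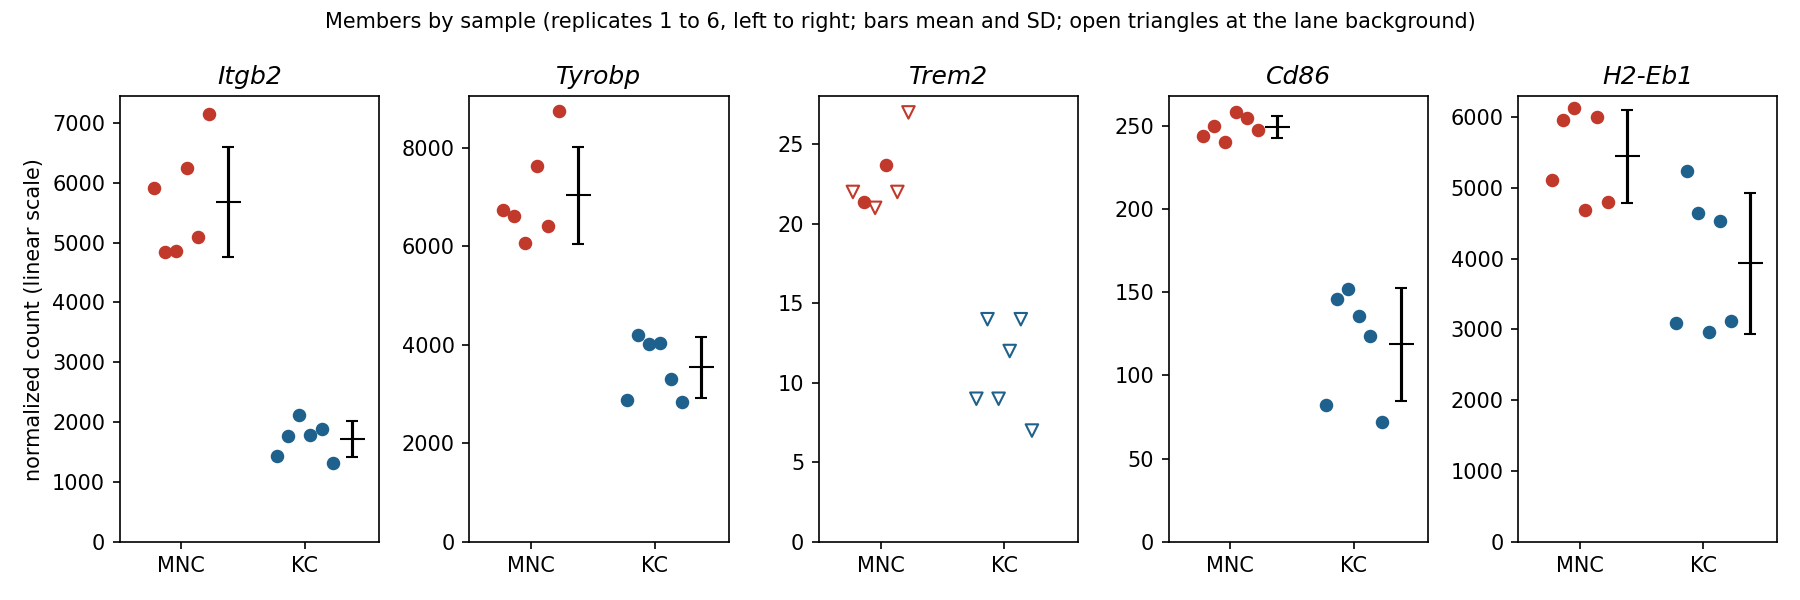
Normalized counts (vertical axes, linear, a scale for each gene) of the 5 genes in 6 MNC and 6 KC samples. Filled points are values above the lane's background, open triangles are values listed at it, and bars give mean and SD for genes measured in all samples. Itgb2, Tyrobp and Cd86 separate the cell types completely, H2-Eb1 overlaps, and Trem2 stands above the background in MNC samples 2 and 4.

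Itgb2, the common chain of the leukocyte integrins, showed the largest difference among the 4 genes measured in all samples. Its normalized counts in MNCs had a lowest value of 4849, a median of 5501 and a highest of 7148. In KCs they were 1311, 1780 and 2114. The lowest MNC sample was thus well above the highest KC sample. The means were 5684 ± 919 and 1719 ± 295 (SD, n = 6 samples each), and the log2 fold change was -1.73 (95% confidence interval -2.06 to -1.40, adjusted p = 4.59e-07 from limma). The values rested on 4307 to 12912 molecules in MNCs and 620 to 1106 in KCs. The counting error of a KC value was therefore at most 4.02%, against a spread between KC samples of 17.2% (coefficient of variation). For the Itgb2 protein the paper reported the same direction by proteome analysis, with significantly more in monocytes.

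Tyrobp, the gene of the adaptor DAP12, was lower in KCs by a smaller amount. Its lowest, median and highest normalized counts were 6060, 6687 and 8746 in MNCs. In KCs they were 2830, 3667 and 4208. The groups did not overlap, and the spread was alike in both, with SDs of the log2 values of 0.19 in MNCs and 0.26 in KCs. The means were 7038 ± 988 and 3548 ± 620 (SD, n = 6 samples each), and the log2 fold change was -0.996 (95% confidence interval -1.32 to -0.68, adjusted p = 6.60e-05 from limma).

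Trem2, the receptor that signals through DAP12, gave no measurable difference. In MNCs it stood above the background in sample 2, at 21.4 normalized counts from 19 molecules, and in sample 4, at 23.7 from 39 molecules. In the other 4 MNC samples it was listed at the background, 21 to 27, and in all 6 KC samples likewise, 7 to 14. Multiplied by the factor of the lane, these backgrounds set upper limits of 13.0 to 15.7 normalized counts in the 4 MNC samples and of 11.7 to 30.4 in KCs. The limits of the cell types overlap, and the KC limits reach above both measured MNC values. The listed values do not overlap and would be called 2.06-fold lower in KCs (adjusted p = 0.000126 from limma), but they compare backgrounds deposited without the factor. With the factor applied to them the log2 fold change was 0.23 (adjusted p = 0.370 from limma), so no fold is given for this gene. Of the 53 genes called lower in KCs, 6 were at the background in all KC samples, and with the factor applied 1 of 48 was.

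Cd86, which encodes the co-stimulatory ligand of CD28, had nearly the same value in every MNC sample. The lowest, median and highest normalized counts were 240.4, 248.7 and 258.2 in MNCs. In KCs they were 71.9, 130 and 152. All KC samples were lower, and among them samples 1 and 6 stood apart at 82.2 and 71.9 while the other 4 had 124 to 152. The means were 249 ± 6.67 and 119 ± 33.8 (SD, n = 6 samples each), and the log2 fold change was -1.12 (95% confidence interval -1.52 to -0.71, adjusted p = 0.000171 from limma). These values are of mRNA. For CD86 protein the paper reported the other direction by flow cytometry, with more pronounced expression in KCs. KC values rested on 34 to 80 molecules, which alone gives a counting error of 11.2 to 17.1%, so that differences among KC samples 2, 3, 4 and 5 lie near the counting error. In MNCs the spread of 2.68% was below the counting error of 4.73 to 6.71%, and none of the 160 genes measured in all samples had a smaller SD of log2 values in this cell type.

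**Figure D2:**
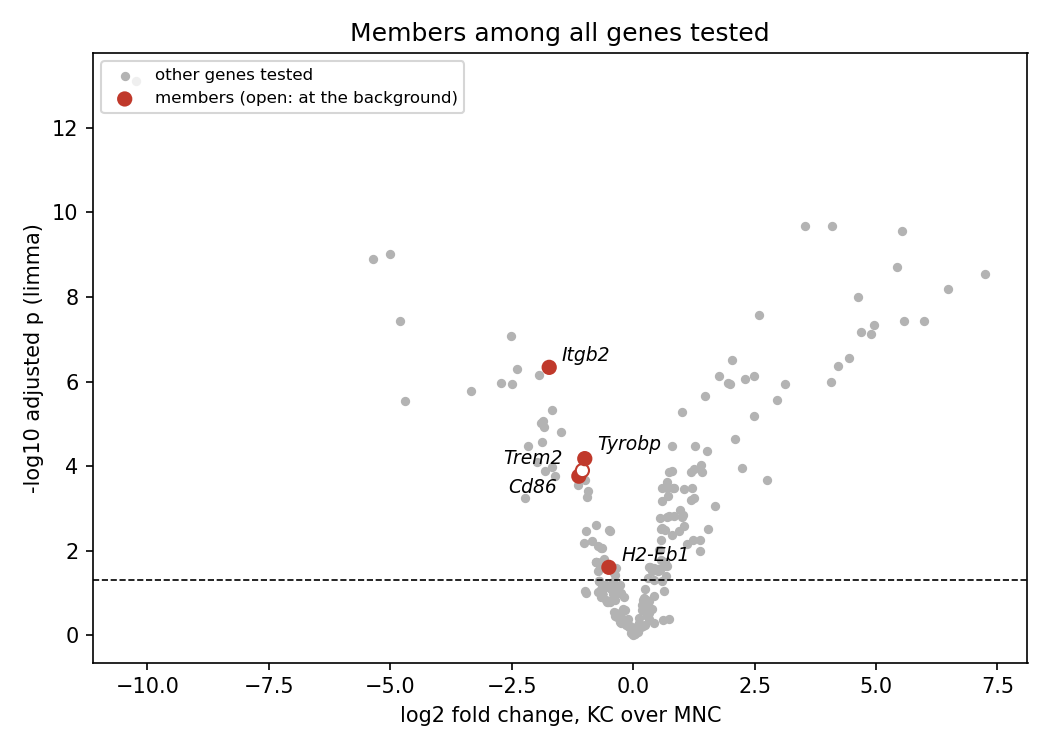
Log2 fold change of KCs over MNCs (horizontal axis) against -log10 of the adjusted p from limma (vertical axis) for all 248 genes. Red points are the 5 genes described, with Trem2 open because most of its values are backgrounds, and the dashed line marks an adjusted p of 0.05. H2-Eb1 lies closest to the line, at an adjusted p of 0.0245.

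H2-Eb1 encodes the beta chain of the class II molecule I-E. Genes of this class are switched on through conserved promoter elements, the X and Y boxes, to which the factors that recruit the class II transactivator CIITA bind. The stretch of 150 bases that ends at the base before the start of H2-Eb1 (RefSeq, GRCm38.p6, chr17:34305717-34305866, + strand) is shown because it holds both; the first run of capitals marks the X box, at positions -94 to -82 from the start, and the second the Y box CTGATTGG, at -62 to -55.
H2-Eb1 upstream stretch: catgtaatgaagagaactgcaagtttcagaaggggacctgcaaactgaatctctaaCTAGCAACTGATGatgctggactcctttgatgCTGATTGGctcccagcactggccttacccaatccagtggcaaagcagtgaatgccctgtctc
The X box was searched as printed with the base before its last GATG free. On both strands of the windows from 250 bases before to 50 after the starts, its letters were found in 3 of 32851 promoters (0.00913%) and the Y box letters in 1346 (4.1%). The promoter of H2-Eb1 was the only one with both, but the letters searched were its own, so its match was fixed in advance. Promoters of other class II genes whose boxes differ in a fixed letter would be missed. H2-Ea had no entry among the promoters searched. The letters do not overlap each other. The genome is that of C57BL/6J, another strain than the mice measured.

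H2-Eb1 was lower in KCs on average, and its samples overlapped. In MNCs the normalized counts were 5109, 5962, 6128, 4678, 6000 and 4791 in samples 1 to 6. In KCs they were 3092, 5240, 4640, 2962, 4536 and 3111 in samples 1 to 6. KC samples 1, 3, 4, 5 and 6 lay below every MNC sample, with samples 1, 4 and 6 the lowest of all 12. Only KC sample 2 overlapped, and it lay above MNC samples 1, 4 and 6. The means were 5445 ± 659 and 3930 ± 989.8 (SD, n = 6 samples each), and the log2 fold change was -0.50 (95% confidence interval -0.87 to -0.13, adjusted p = 0.0245 from limma). For this gene alone the exact permutation test gave p = 0.0152 (two-sided, 924 assignments). The call was lost without any one of MNC samples 3 and 5 or KC samples 1, 4 and 6 (adjusted p 0.0501 to 0.0536 from limma), after quantile normalization (adjusted p = 0.199) and with scaling to the housekeeping genes without Gapdh (adjusted p = 0.0783).

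H2-Ea-ps, the panel's name for the gene of the alpha chain that pairs with the H2-Eb1 product, followed the same pattern over the samples. The annotation lists it under H2-Ea as a transcribed pseudogene, which describes C57BL/6; Balb/c mice are known to carry an intact copy. In MNCs its normalized counts were 17652, 19135, 20420, 15786, 20095 and 15567 in samples 1 to 6, and in KCs 9621, 21990, 17812, 10092, 18343 and 10264. KC samples 1, 4 and 6 were again the lowest of all 12, and KC sample 2 was the highest of all. The difference between the cell types (log2 fold change -0.37, 95% confidence interval -0.85 to 0.10, adjusted p = 0.146 from limma) was not called, but became so with samples rescaled to their median gene (-0.64, adjusted p = 0.0220 from limma) and after quantile normalization (-0.58, adjusted p = 0.0311 from limma). The within-sample log2 ratio of H2-Eb1 to H2-Ea-ps was -1.73 ± 0.04 in MNCs and -1.86 ± 0.17 in KCs (SD, n = 6 samples each). It compares the samples with each other, not the levels of the genes, which are read by different probes.

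The cell types differed by unequal amounts among the 4 measured genes. The ratio of a pair of genes within a sample does not depend on the factor of the lane, so it was compared between the cell types for all 6 pairs with an exact permutation test (two-sided, 924 ways to assign the samples, smallest possible p 0.00216), adjusted over the 6 pairs. Itgb2 was lower in KCs by more than each of the others. Its log2 ratio to Tyrobp was -0.31 ± 0.08 in MNCs and -1.04 ± 0.16 in KCs (SD, n = 6 samples each), a difference of -0.73 (95% interval -0.90 to -0.56, adjusted p = 0.00433, exact permutation test). Relative to Cd86 the difference was -0.61 (95% interval -0.90 to -0.32) and relative to H2-Eb1 it was -1.23 (95% interval -1.69 to -0.80), each with the same adjusted p in the exact permutation test. In these 3 pairs no KC sample overlapped an MNC sample. Tyrobp and Cd86 could not be told apart in their difference by this test, which does not pair samples. Their log2 ratio was 4.80 ± 0.19 in MNCs and 4.93 ± 0.22 in KCs, a difference of 0.12 (95% interval -0.15 to 0.39, adjusted p = 0.305, exact permutation test). Cd86 relative to H2-Eb1 was lower in KCs by a log2 difference of -0.62 (95% interval -0.94 to -0.26, adjusted p = 0.0130, exact permutation test), with an overlap. For Tyrobp relative to H2-Eb1 the difference was -0.50 (95% interval -0.93 to -0.07, adjusted p = 0.0364, exact permutation test), and this call was lost without any one of 8 samples, namely MNC samples 1, 4 and 6 and KC samples 1, 2, 3, 5 and 6 (adjusted p 0.0571 to 0.0753).

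**Figure D3:**
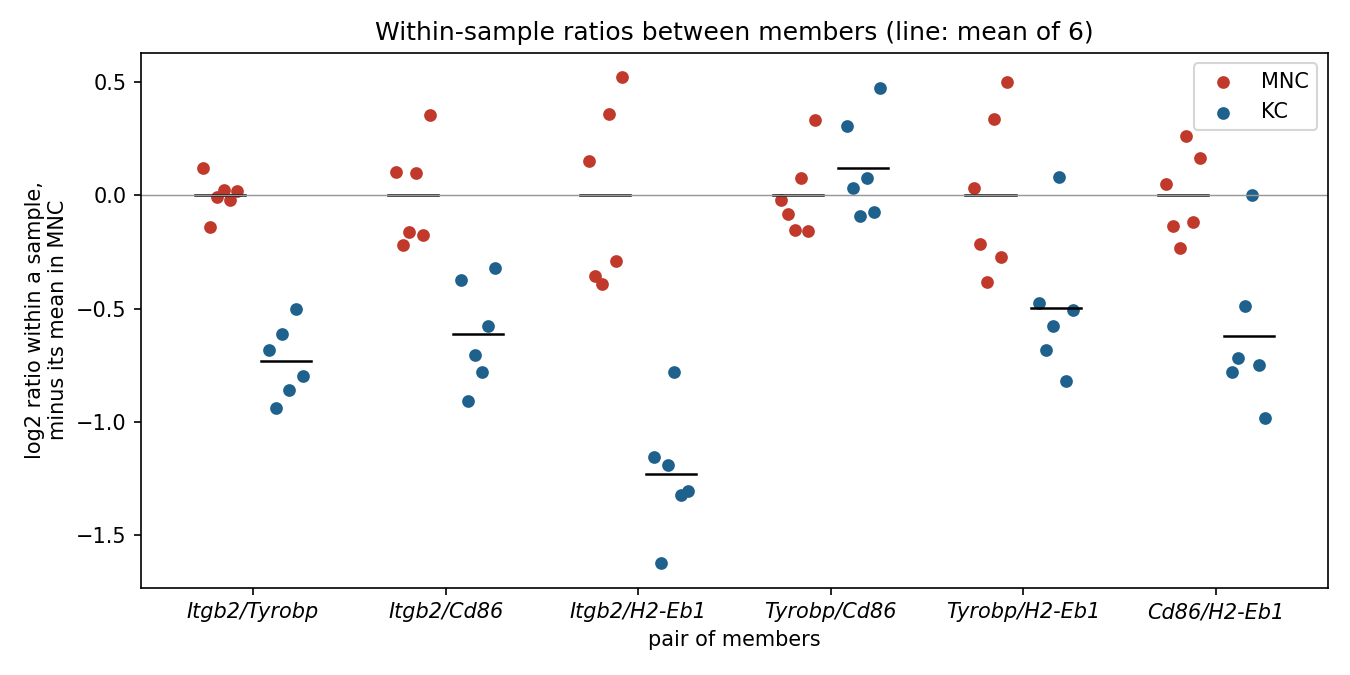
Log2 ratio of a pair of genes within each sample, minus the mean of that ratio in MNCs (vertical axis), for the 6 pairs of genes measured in all samples (horizontal axis). Points are samples, in red for MNCs and blue for KCs, and lines are means of 6. The KC samples lie below all MNC samples for the 3 pairs that start with Itgb2, and the pair of Tyrobp and Cd86 overlaps.

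Within the MNC samples, the class II genes were low where Itgb2 and Tyrobp were high. MNC samples 1, 4 and 6, the 3 lowest for H2-Eb1 and for H2-Ea-ps, were the 3 highest for Itgb2 (5907, 6244 and 7148 normalized counts) and for Tyrobp (6748, 7636 and 8746). The other 3 MNC samples had 4849 to 5096 normalized counts of Itgb2 and 6060 to 6626 of Tyrobp. The summed level of Alox15, Retnla and Tgfb2 was likewise highest in MNC samples 1, 4 and 6 (25124 to 31675), and that of 10 T and NK cell genes lowest (4415 to 6963). 4 genes of B cells and dendritic cells (Ccr7, Ccl17, Ccl22 and Cd40) summed to 1583 to 2436 in these samples and to 2522 to 2834 in the other 3. That sum was mostly Ccr7, with a mean of 2060 normalized counts in MNCs against 208 for Cd40. By the mean log2 value of the 4 genes, MNC sample 1 (7.30) lay above sample 2 (7.19). Cd86, by contrast, varied between MNC samples by less than its counting error.

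In KCs the order of samples was another one. Samples 1 and 6 had the lowest values of Itgb2, Tyrobp and Cd86 and were also low for H2-Eb1 and H2-Ea-ps. Sample 4 was low for both class II genes alone, with Itgb2 and Tyrobp above the KC median at 1793 and 4041 normalized counts. Gapdh, which took part in the authors' scaling, had 4159 and 4084 normalized counts in KC samples 1 and 6 and 2159 to 2741 in the other 4. Samples 1 and 6 were also the lowest KC samples for Ccr2 (866 and 953 normalized counts against 1400 to 1978), for the sum of the 4 Kupffer cell genes (1238 and 1541 against 1773 to 3866) and for that of the hepatocyte genes (4008 and 6800 against 7768 to 13939). The T and NK cell sum was highest in them (37302 and 20315 against 10949 to 15856). Ccl5 had the highest normalized counts in that sum (14244 ± 9941 in KCs, SD, n = 6 samples). By the mean log2 value of the 10 genes, samples 1 and 6 did not stand out (8.23 and 8.10 against 8.15 to 8.61). The part of these cells and of Gapdh in the low values of samples 1 and 6 was not tested. The 4 B cell and dendritic cell genes summed to 881 to 1446 in KC samples 1, 4 and 6 and to 2336 to 2555 in samples 2, 3 and 5. Ccr7 had by far the highest normalized counts of the 4, with a mean of 1572 in KCs against 225 for Cd40. Ccl17 was at the background in all KC samples. The part of these cells in the level of the class II genes was not tested. The SD of log2 values between KC samples was 0.26 for Itgb2 and for Tyrobp, 0.36 for H2-Eb1 and 0.45 for Cd86, against a median of 0.35 over the 160 genes measured in all samples.

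**Figure D4:**
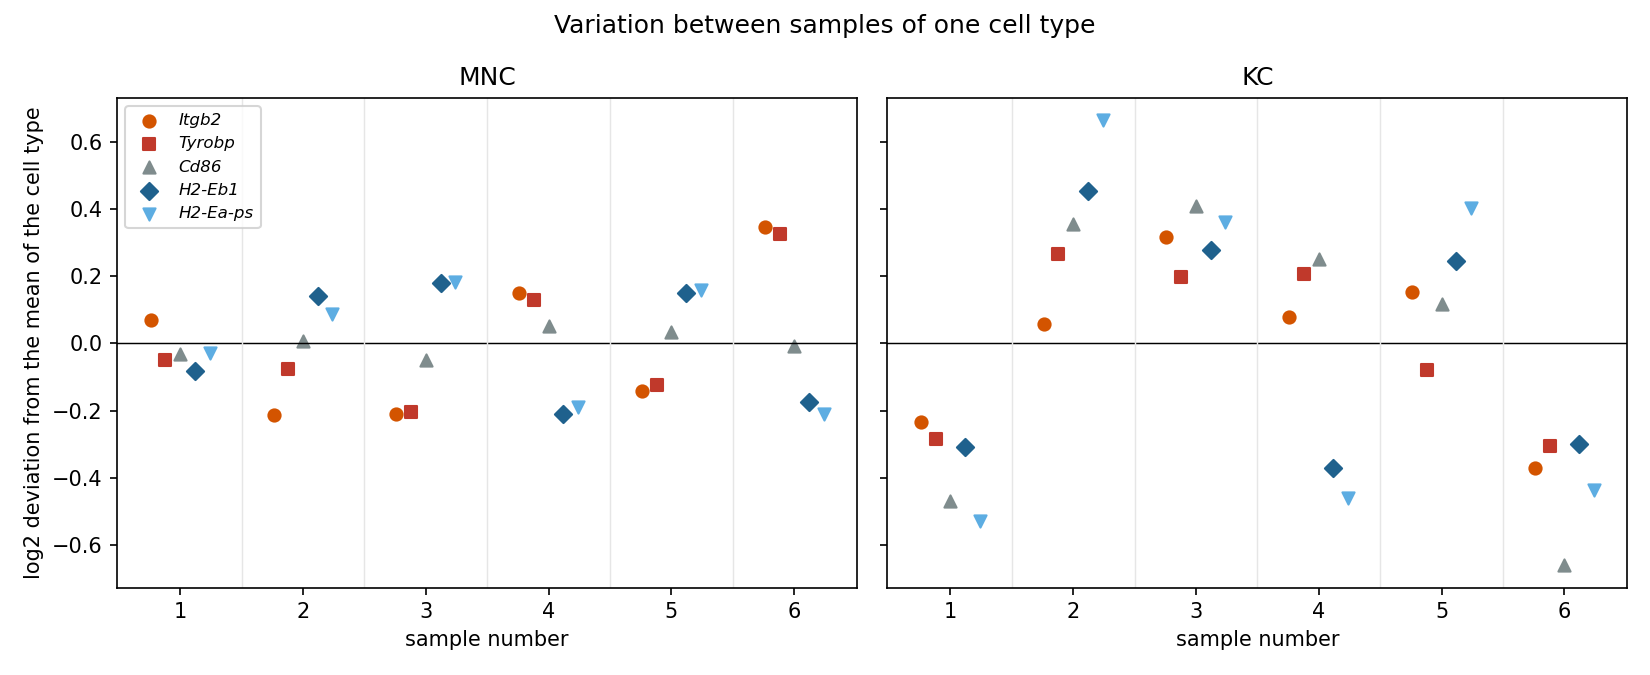
Deviation of each sample from the mean of its cell type on the log2 scale (vertical axis) by sample number (horizontal axis), for MNCs on the left and KCs on the right. In MNC samples 4 and 6 Itgb2 and Tyrobp are up and the class II genes down, and in KC samples 1 and 6 all 5 genes are down.

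The genes whose pattern was most like each of the 4 were sought among the 159 others measured in all samples, by Pearson's r over the 12 samples after the mean of each cell type was subtracted. These values describe the samples, which share the factor of their lane, and are the highest of 159. For Itgb2 they were Cxcl2 (r = 0.886), Tlr2 (r = 0.860) and Tyrobp (r = 0.850). For Tyrobp they were Tlr8 (r = 0.977), Nlrp3 (r = 0.951) and Tlr4 (r = 0.919). Cxcl2 encodes a chemokine, and the Tlr genes and Nlrp3 encode innate immune sensors. No gene was among the 3 nearest of both. For Cd86 they were Mapkapk2 (r = 0.883), Pla2g4a (r = 0.879) and Ccr2 (r = 0.872), and centring each sample on its mean gene lowered the first to 0.447 and left the others at 0.789 and 0.798. Taken by cell type, these 3 had r of 0.941 to 0.976 over the 6 KC samples, but 0.462, 0.318 and -0.351 over the 6 MNC samples, in which Cd86 hardly varied. For H2-Eb1 they were H2-Ea-ps (r = 0.982), Tlr1 (r = 0.972) and Mef2c (r = 0.969), and after centring these were 0.951 to 0.959. Itgb2 and Tyrobp ranked 100 and 99 of 159 for H2-Eb1 (r = 0.171 and 0.173 over the 12 samples). These low values pool opposite signs. Over the 6 KC samples r was 0.656 for Itgb2 and 0.550 for Tyrobp, and over the 6 MNC samples -0.934 and -0.853.

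Of 11 genes for co-stimulation and contact with T cells, 7 were on the panel. In KCs 3 were called higher and 1, Cd86, lower (35.1% and 21.4% over all genes). The median log2 fold change was 0.33, against 0.05 over all genes, and the list was not tested against these shares. Tnfsf14, the ligand LIGHT of activated T cells, was 3.40-fold higher in KCs (adjusted p = 7.34e-07) and Cd40lg, the CD40 ligand of helper T cells, 1.95-fold (adjusted p = 0.00106). Cd40 itself, the receptor on the antigen-presenting cell, was 225 ± 68.9 in KCs and 208 ± 25.2 in MNCs (SD, n = 6 samples each; adjusted p = 0.791 from limma). Lta, a cytokine of lymphocytes, was the third gene called higher. Tnfsf14, Cd40lg and Lta are themselves among the 10 T and NK cell genes summed above, so that the sum, in which Ccl5 had the highest normalized counts (14244 ± 9941 in KCs, SD, n = 6 samples), is no separate observation. The part of T and NK cells in these differences was not tested.

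Of 9 genes of MHC class II and its control by interferon gamma on the panel, 4 were called higher and 2 lower in KCs. Over all genes these shares were 35.1% and 21.4%. The median log2 fold change was -0.21, against 0.05 over all genes, and the list was not tested against these values. Ifng, the gene of interferon gamma, stood at 314 ± 41.1 normalized counts in KCs and 26.4 ± 4.61 in MNCs, where 1 sample was at the background (log2 fold change 3.53, adjusted p = 2.07e-10 from limma). It is 1 of the 10 T and NK cell genes, of which 7 were called higher in KCs, and the part of these cells in its level was not tested. The transcription factors of the interferon response Irf1 and Irf7 were 1.74-fold and 1.62-fold higher (adjusted p 0.000126 and 0.000326 from limma). None of these 3 genes overlapped between the cell types. H2-Eb1 and Irf5, a factor that acts below toll-like receptors, were called lower, Irf5 by 1.56-fold (adjusted p = 0.00852). H2-Eb1 thus stood lower in the cell type in which the interferon gamma gene, Irf1 and Irf7 stood higher.

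Of 17 measured genes for signalling below DAP12, 4 were called higher and 3 lower in KCs (35.1% and 21.4% over all genes). The median log2 fold change was -0.18, against 0.05 over all genes. Neither this list nor the next was tested against these shares. Among the 4 were the adaptor Shc1 (1.74-fold, adjusted p = 3.24e-05 from limma, without overlap) and the kinase Mapk3 (1.34-fold, adjusted p = 0.0253 from limma, with overlap), which many receptors share. Of the 3 lower, Tyrobp alone was measured in all samples, since Trem2 and Pik3c2g were at the background in all KC samples. Of 11 genes for integrin and cytoskeleton signalling, Itgb2 and Rhoa were called lower and none higher. Rhoa, a small GTPase that controls actin, was 1.41-fold lower in KCs (adjusted p = 0.00326 from limma) without overlap, while the related Rac1 (1903 ± 88.9 in KCs, 2159 ± 105 in MNCs) and Cdc42 (8087 ± 683 and 7759 ± 475) were not called. Beside Itgb2 the list held no gene with a difference over 2-fold.

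Of 16 genes listed as other myeloid surface receptors, 13 were on the panel. In KCs 7 of these were called lower and 2 higher (21.4% and 35.1% over all genes). The median log2 fold change was -0.77, against 0.05 over all genes, and the list was not tested against these shares. The list includes Areg, the gene of a ligand. It leaves out other receptors on the panel, such as Il1r1 and Ccr3, called higher in KCs, and Tlr6 and Ptgir, called lower. Ccr1, a chemokine receptor, was 5.67-fold lower (adjusted p = 1.16e-06) and C3ar1, the receptor of the complement fragment C3a, 5.27-fold lower (adjusted p = 5.14e-07). The 2 called higher were the scavenger receptor Cd163 (2.16-fold, adjusted p = 0.00691) and the mannose receptor Mrc1 (log2 fold change 0.68, adjusted p = 0.0403), both with an overlap of the groups. The remaining 4, among them Ccr2, were not called, so that the list did not move in 1 direction as a whole.

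**Figure D5:**
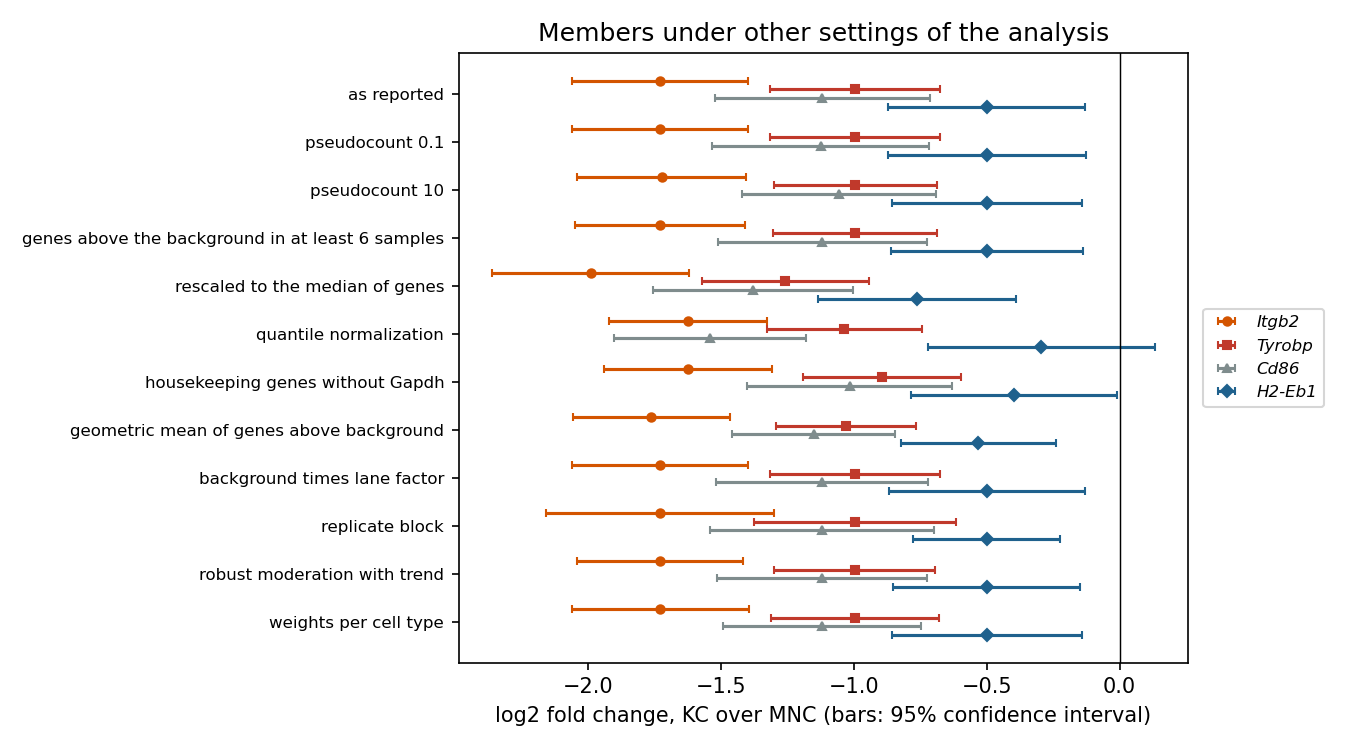
Log2 fold change of KCs over MNCs with 95% confidence interval (horizontal axis) for the 4 genes measured in all samples, under the analysis as reported and 11 other settings (vertical axis). Itgb2, Tyrobp and Cd86 stay below 0 with their whole interval, and the interval of H2-Eb1 crosses 0 after quantile normalization.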

How the data were processed

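The authors counted reporter molecules on the nCounter Mouse Inflammation panel and normalized them in nSolver, with a background threshold at the highest negative control and 1 factor per lane from positive controls and housekeeping genes, by geometric means. The deposited signal values, normalized counts per gene and sample, were read by sample accession. 248 genes were tested, and 4 housekeeping genes and 14 control probes were kept apart. The factor of a lane was taken as the number that turns its values over the background into whole counts, with a tolerance of 0.02. Background entries lack this factor and give no whole counts, so a count model was not run.

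Differences were tested with limma 3.58.1 in R 4.3.3 on log2(value + 1), two-sided, with Benjamini-Hochberg adjustment over all genes and a threshold of 0.05. The fit was tested on simulated data. Python 3.11.15, numpy 2.4.6, pandas 2.3.3 and matplotlib 3.10.9 served for the rest, with exact permutation tests over samples. Intervals of ratios hold the shifts that this test did not refuse. The labels do not tie samples to separate experiments, and p-values measure the spread between these pooled samples. Promoter sequences came from a table made from RefSeq (GRCm38.p6), in which H2-Eb1 and Trem2 were matched.

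The genes and lists were chosen with earlier results of these data known. Named beside the 5 genes were, for each, the 3 genes most like it, and per list the 2 largest rises and falls without overlap; others were chosen after their values were seen. Some genes of the lists are counted but not reported here by name. Alternatives concerned pseudocount, filter, scaling, background, block, samples left out and test. Marker lists also covered granulocytes (3 genes, 144 to 363 in KCs, 101 to 304 in MNCs) and endothelium (Flt1, 52.2 to 151 in KCs, 9.01 to 27 in MNCs), as summed normalized counts. Flt1 was at the background in 5 MNC samples.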

Additional observations from a re-analysis of the deposited data

How the results depend on the processing

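Itgb2, Tyrobp and Cd86 stayed lower in KCs and called under all 24 alternatives each, with log2 fold changes of -1.99 to -1.62, -1.26 to -0.89 and -1.54 to -0.99. H2-Eb1 stayed lower under 24 and was not called under 7 of them. Its log2 fold change was -0.29 after quantile normalization, -0.40 with scaling to the housekeeping genes without Gapdh (a shift of 0.10 on the log2 scale), and -0.59 to -0.43 with each sample left out, where the call was lost without MNC samples 3 or 5 or KC samples 1, 4 or 6. Trem2 had -0.49 after quantile normalization, 0.23 with the background multiplied by the factor, and 0 with all values raised to the highest background of any lane, an alternative chosen after seeing the data. The difference in the log2 ratio of Tyrobp to H2-Eb1 was -0.61 to -0.40 with each sample left out. Of all genes, 87 were called higher and 53 lower. With samples rescaled to their median gene, which shifted KCs against MNCs by -0.26 on the log2 scale, these were 68 and 108. They were 63 and 69 after quantile normalization, and 140 and 48 with the background multiplied by the factor. Leaving out each sample gave 76 to 88 higher and 46 to 86 lower, the latter without MNC sample 2. The labels do not say whether same-numbered samples belong together. Their correlations ran from -0.23 to 0.40, which cannot settle it. With the replicate block the log2 ratio of Tyrobp to Cd86, a difference of 0.12, had an adjusted p of 0.0312 (exact sign-flip test), and no call of a member changed. The edgeR alternative was not run, since values at the background are not whole counts. Trem2 has no value under the filter on low values. Depth limits Cd86 in KCs, and the lane background limits Trem2.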
